A study of Mus musculus with 42 samples.

Results

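Cfd and 5 adipocyte transcripts were followed in mouse liver: Cfd, which encodes complement factor D (adipsin), and Adipoq, Lep, Retn, Fabp4 and Plin1, which encode adiponectin, leptin, resistin, the fatty acid binding protein of adipocytes and the lipid droplet coat protein perilipin 1. These 6 genes were taken by name from the 19756 gene names listed in the 6 deposited tables. Cfd was chosen by its high level in obese wildtype (WT) livers against lean ones, so that contrast describes Cfd and does not test it. Cfd and Fabp4 were listed in all 6 tables, whereas Adipoq, Lep, Retn and Plin1 were listed in 1, the table of ChemR23 knockout (KO) obese and WT obese mice.

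Liver RNA of 42 male C57BL/6J mice was sequenced, 7 in each of 6 groups. The question was how the lipid mediator resolvin E1 (RvE1) and its receptor ChemR23 act on the obese liver. From 6 weeks of age, WT lean and KO lean mice ate a diet with 10% of energy as fat for 15 weeks, and WT obese and KO obese mice a diet with 60%. The WT obese+RvE1 and KO obese+RvE1 mice, on the same 60% diet, then received 300 ng of RvE1 and the other 4 groups, lean mice included, vehicle (ethanol in PBS) on 4 days, and all 42 livers were taken on day 5 after a fast. The KO was made with CRISPR/Cas9 on C57BL/6J and was present in the whole body, and WT mice were littermates. The labels place the injection into the peritoneum at the lower left visceral fat pad. Between 15992525 and 43841120 reads per mouse fell on listed genes. Values are normalized counts, that is reads divided by a size factor made from the 14 libraries of 1 table, so groups were compared only within a table. Cmklr1, the gene of ChemR23, had 30.1 to 148 normalized counts in WT and 5.29 to 24.9 in KO mice, with each group read in 1 of its tables. The number that opens each mouse identifier (10 in mouse 10RL) is mostly shared by 2 to 4 mice of 1 group. Numbers 19 and 22 have 1 mouse each, number 23 occurs in both KO obese groups, and the labels do not say what the number stands for.

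Factor D is a serine protease of the alternative complement pathway: it cuts factor B once factor B has bound C3b, which completes the convertase that cleaves more C3. In the mouse its main source is white fat, where Cfd belongs to the genes of the mature adipocyte together with those of adiponectin, leptin, resistin and perilipin 1. Fabp4 is also made by macrophages and by endothelial cells, both of which liver holds. The question asked here was whether Cfd follows the adipocyte transcripts from mouse to mouse.

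The promoters of Cfd, Adipoq and Lep are shown because Adipoq and Lep were high together in the same 2 mice, which were not those highest in Cfd. Each sequence holds the 250 bases before the RefSeq gene start on GRCm38.p6 and runs 5′ to 3′ on the strand of the gene, at chr10:79890603-79890852 (plus strand) for Cfd, chr16:23146286-23146535 (plus strand) for Adipoq and chr6:29059971-29060220 (plus strand) for Lep.
Cfd: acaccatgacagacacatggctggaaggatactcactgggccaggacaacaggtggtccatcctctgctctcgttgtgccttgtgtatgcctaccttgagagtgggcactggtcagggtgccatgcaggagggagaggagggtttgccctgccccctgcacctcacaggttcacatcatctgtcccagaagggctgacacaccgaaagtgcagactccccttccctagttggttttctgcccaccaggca
Adipoq: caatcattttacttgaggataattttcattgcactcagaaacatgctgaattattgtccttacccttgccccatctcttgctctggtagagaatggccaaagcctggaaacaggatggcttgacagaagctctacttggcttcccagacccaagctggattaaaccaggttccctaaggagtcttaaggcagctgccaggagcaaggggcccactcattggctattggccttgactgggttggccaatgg
Lep: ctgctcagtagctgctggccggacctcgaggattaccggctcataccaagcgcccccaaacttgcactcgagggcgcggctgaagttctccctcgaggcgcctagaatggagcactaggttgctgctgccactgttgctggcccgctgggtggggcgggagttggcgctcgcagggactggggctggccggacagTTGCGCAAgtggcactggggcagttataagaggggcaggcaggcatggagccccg
Capitals mark matches to TTGCNNAA, the core bound by C/EBP factors, searched on both strands. The Lep sequence held 1 match, from base -55 to base -48 counted back from the start, and the Cfd and Adipoq sequences held 0. Among all 32851 promoters of that length, 9.56% held a match, and a match here is a letter pattern only. Retn had 0 matches and Plin1 had 2 in its 250 bases.

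Cfd is a protein-coding gene of the plus strand of chromosome 10 and spans bases 79890853 to 79892655 of GRCm38. In the WT lean mice it had 4.68, 6.20, 10.4, 11.0, 12.2, 20.0 and 22.3 normalized counts, from 4 to 23 reads. In the WT obese mice it had 121, 132, 155, 294, 301, 403 and 556. Every obese mouse lay above every lean mouse, with means of 280 ± 161 (SD, n = 7) and 12.4 ± 6.60 (SD, n = 7). The ratio of the means was 22.6 and the log2 fold change on log2(normalized count + 1) was 4.34 (SE 0.38), the third highest of 14012 genes. These are the values that chose Cfd. For the same contrast 3.8% of all genes were called, up or down, where a call needs a limma adjusted p below 0.1 and a fold of more than 1.5. In bulk liver, more cells that make a transcript and more RNA per cell cannot be told apart.

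Cfd rose with the diet in KO mice, with a wide range among the obese mice. The KO lean mice had 8.80, 9.87, 12.6, 13.3, 23.5, 67.2 and 76.1 normalized counts, and the KO obese mice had 21.8, 38.8, 39.6, 259, 350, 988 and 1738. The groups overlapped: 4 of the 7 obese mice lay above the highest lean mouse, and the other 3 lay among the lean ones. The means were 491 ± 646 (SD, n = 7) and 30.2 ± 28.8 (SD, n = 7), a ratio of 16.3. The log2 fold change was 3.01 (SE 0.88, limma adjusted p = 0.0328), the eighth highest of 14213 genes, of which 10.4% were called. The KO obese range spanned 79.9-fold between the lowest and the highest mouse, against 4.59-fold in WT obese mice.

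The spread in KO obese mice ran partly along the identifier numbers and partly within them. The 3 mice of number 10 had 350 to 1738 normalized counts, the 3 of number 31 had 21.8 to 259, and the 1 mouse of number 23 had 38.8. In KO lean mice both high values, 67.2 and 76.1, came from number 20, whose other mouse had 13.3. When the identifier number entered as a random block, the log2 fold change was 2.94 and the call was lost (limma adjusted p = 0.101). It was also lost without the mice of number 10, at 1.32 (adjusted p = 0.237), and without those of number 9, at 2.56 (adjusted p = 0.127). No identifier number occurred in both KO groups of this contrast, so the number and the diet cannot be told apart by values within a number.

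**Figure D1:**
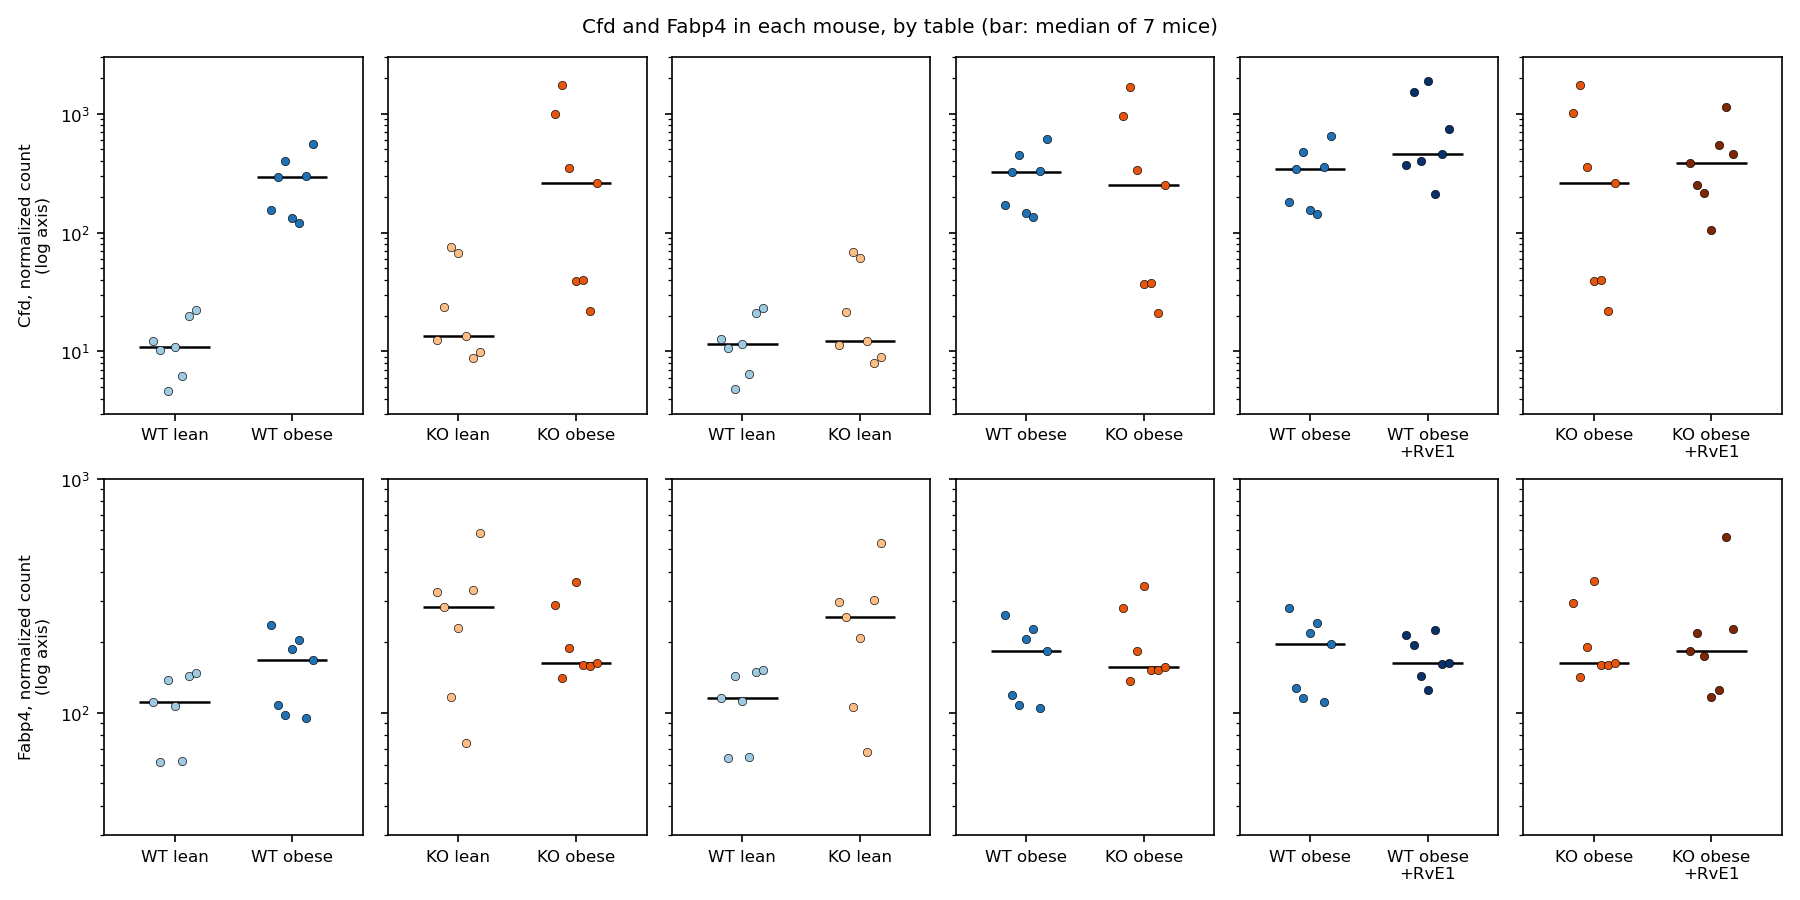
Normalized counts of Cfd (upper row) and Fabp4 (lower row) in each mouse, on log axes, with 1 column for each of the 6 tables and a bar at the median of 7 mice. Cfd separated WT lean from WT obese mice completely (4.68 to 22.3 against 121 to 556) and overlapped in KO mice (8.80 to 76.1 against 21.8 to 1738), while Fabp4 overlapped in every table.

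Without a diet difference, Cfd did not pass the test between genotypes. In lean mice it had 12.9 ± 6.82 (SD, n = 7) normalized counts in WT and 27.4 ± 26.2 (SD, n = 7) in KO, and only KO mice 20L and 20-2L, at 60.9 and 69.1, lay above the WT range of 4.86 to 23.1. The log2 fold change was 0.71 (SE 0.49, limma adjusted p = 0.371), or 0.01 without the KO mice of number 20 (limma adjusted p = 0.986), and 6.65% of genes were called in this contrast. In obese mice, 2 KO mice lay above and 3 below the WT range of 134 to 610, with means of 476 ± 627 (SD, n = 7) in KO and 309 ± 176 (SD, n = 7) in WT. On the log scale KO was lower, -0.64 (SE 0.85, limma adjusted p = 1.000), while the ratio of means, 1.54, and the count models put it higher, at 0.61 with edgeR (adjusted p = 1.000) and 0.62 with DESeq2 (adjusted p = 1.000). Without the KO mice of number 10 the log2 fold change was -2.33 (limma adjusted p = 0.972, with an unadjusted p of 0.00132). Of 14162 genes, 0.0141% were called there.

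RvE1 did not move Cfd beyond the threshold in either genotype. In WT obese mice given RvE1, Cfd had 210, 369, 399, 455, 740, 1525 and 1888 normalized counts, with a mean of 798 ± 649 (SD, n = 7) against 329 ± 188 (SD, n = 7) with vehicle. The 3 highest lay above the vehicle range of 143 to 651 and the other 4 within it. The log2 fold change of 1.09 (SE 0.47) ranked as number 18 of 13085 genes, with an unadjusted limma p of 0.0336 and an adjusted p of 0.786. No gene was called in this contrast (0%), where limma gave 795 genes an unadjusted p under 0.05, edgeR called 1 and DESeq2 called 15.

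In KO obese mice given RvE1, Cfd had 105, 215, 254, 386, 462, 544 and 1146 normalized counts, with a mean of 445 ± 344 (SD, n = 7) against 497 ± 654 (SD, n = 7) with vehicle. Every RvE1 mouse lay within the vehicle range of 22.0 to 1757. The log2 fold change was 0.96 (SE 0.88, limma adjusted p = 0.766), the ratio of means was 0.894, and edgeR put the change at -0.17 (adjusted p = 0.959). Without the vehicle mice of number 10 it was 2.65 and passed the call (limma adjusted p = 0.0867), and without the 3 mice of number 23 it was 0.18 (limma adjusted p = 0.945). Within number 23, the only one in both groups, Cfd was 39.1 in the vehicle mouse and 462 and 1146 in the RvE1 mice. Limma called 0% of 14207 genes here, with 1179 at an unadjusted p under 0.05, edgeR called 0 and DESeq2 14. The RvE1 change in KO less that in WT was -0.13 on the log2 scale (SE 1.07, limma adjusted p = 1.000), and edgeR put it at -1.43 (unadjusted p = 0.158, adjusted p = 1.000). This difference was called in 0% of 13059 genes, with 311 at an unadjusted p under 0.05. The contrasts of this section share mice, WT obese and KO obese vehicle mice above all.

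Adipoq, Lep and Plin1 were near 0 in 12 of the 14 obese vehicle livers, whose table is the only one that lists them. Adipoq (chromosome 16 from 23146536 to 23158028) encodes the adipokine that acts through Adipor1 and Adipor2. In WT obese mice it had 0, 0, 0, 0.961, 1.37, 1.41 and 32.3 normalized counts, and in KO obese mice 0, 0, 1.25, 1.26, 1.70, 2.14 and 17.6. A single mouse stood out in each group, WT mouse 6L with 33 reads and KO mouse 10R with 23, and the other 12 mice had at most 3 reads. The means, 5.15 in WT and 3.42 in KO, rested on those 2 mice.

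Lep (chromosome 6 from 29060220 to 29073877) encodes the satiety hormone of fat cells. Mouse 6L had 52.9 normalized counts from 54 reads and mouse 10R had 31.3 from 41 reads, and the other 12 mice had 0 to 1.69. Plin1 (chromosome 7 from 79720218 to 79732903, minus strand) coats the lipid droplets of adipocytes. It had 28.4 normalized counts from 29 reads in mouse 6L, 13.0 from 17 reads in mouse 10R and 0 to 1.69 in the others, of which 9 had 0 reads. The same 2 mice were thus the highest of their groups for all 3 transcripts. Retn (chromosome 8 from 3655770 to 3660110), the resistin gene, had 0 to 3 reads in each of the 14 mice and 0 in 7 of them. Its highest value, 2.94 normalized counts, also fell in mouse 6L. A count of 0 in 1 library allows up to 3 reads.

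The mice that held these transcripts were not those with the highest Cfd. Mouse 6L had the lowest Cfd of the 7 WT obese mice, 134 normalized counts, and mouse 10R the third highest of the 7 KO obese mice, 338. Mouse 10RL had the highest Cfd of the obese vehicle mice, 1685 normalized counts from 1683 reads. It had 0 reads of Adipoq, Lep, Plin1 and Retn. Mouse 10-2L followed with 963 normalized counts of Cfd, 2 reads of Adipoq and 0 of Lep, Plin1 and Retn. Within WT obese mice, Pearson r with Cfd ran from -0.60 (Lep) to -0.15 (Retn), and within KO obese mice from -0.60 (Retn) to 0.05 (Adipoq). None of these 8 relations passed adjustment (smallest adjusted p = 0.381, two-sided exact permutation test over 7 mice). Since 6 of 7 mice per group had 3 reads or fewer of Adipoq, Lep and Plin1, r rests on a single mouse for each of these 3. Without the 2 mice farthest from the median, Adipoq went from -0.39 to 0.40 and Lep from -0.60 to -0.07 in WT obese mice, and Lep from -0.01 to -0.36 and Plin1 from -0.06 to -0.65 in KO obese mice.

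Without mice 6L and 10R the log2 fold change of Cfd was 4.51 for the diet in WT mice, as a description, and 2.84 for the diet in KO mice (limma adjusted p = 0.0652). Mesothelial markers, which mark the lining of abdominal organs and of fat pads, stood apart in one of the 2 mice. The sum of the 8 listed markers was 724 normalized counts in mouse 6L against 130 to 318 in the other WT obese mice, and in mouse 10R it was 193 within a KO obese range of 103 to 295. Adipose stromal markers, 8 of 8 listed, summed to 2898 in mouse 6L and 2879 in mouse 10R, the second and the third highest of a range of 2455 to 2963 over all 14 mice. What part fat tissue or mesothelium had in the reads of mice 6L and 10R was not tested.

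**Figure D2:**
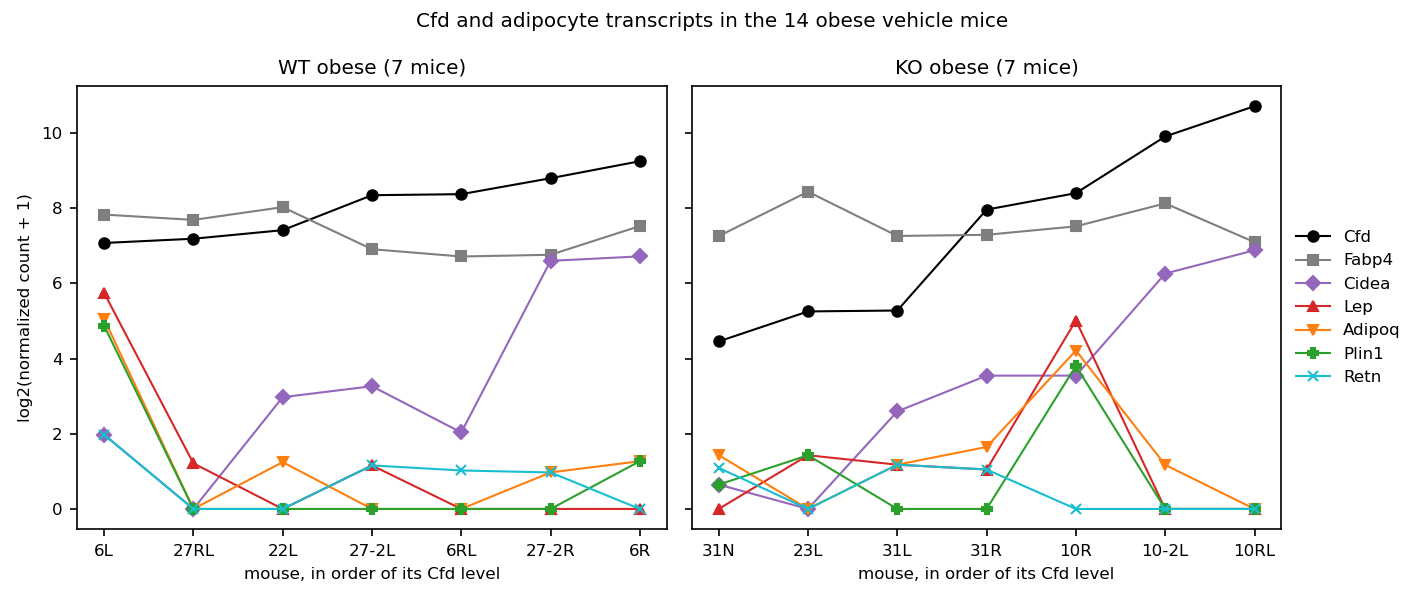
Levels, as log2(normalized count + 1), of Cfd, the 5 adipocyte transcripts and Cidea in the 14 obese vehicle mice, ordered by Cfd within WT (left) and KO (right); markers at 0 overlap. Lep, Adipoq and Plin1 peaked together in mouse 6L (Cfd 134 normalized counts, the lowest of WT) and mouse 10R (Cfd 338), while the highest Cfd, 1685 in mouse 10RL, stood beside 0 reads of all 3.

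Between KO obese and WT obese mice none of the 4 transcripts passed the test. Lep had a log2 fold change of 0.08 (SE 0.94, limma adjusted p = 1.000) and edgeR put it at -0.60. Adipoq, Plin1 and Retn had mean levels of 4.28, 3.22 and 0.688 normalized counts, under the minimum mean of 5 used for testing. With no minimum, their log2 fold changes were 0.16, -0.04 and -0.26, all with a limma adjusted p of 1.000.

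Fabp4 (chromosome 3 from 10204088 to 10208576, minus strand), which had reads in every mouse of every table, was not called in any tested contrast. With the diet, it went from 110 ± 36.6 (SD, n = 7) to 157 ± 57.2 (SD, n = 7) normalized counts in WT mice, a log2 fold change of 0.50 given as a description, beside 4.34 for Cfd. In KO livers it was 279 ± 169 (SD, n = 7) in lean and 208 ± 83.3 (SD, n = 7) in obese livers, -0.24 on the log2 scale (SE 0.37, limma adjusted p = 0.696), beside 3.01 for Cfd. All 7 KO obese mice lay within the KO lean range of 74.2 to 587.

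Fabp4 came nearest to a call between the lean genotypes. WT lean mice had 63.7 to 153 normalized counts with a median of 115, KO lean mice had 67.6 to 532 with a median of 257, and 5 of the 7 KO mice lay above every WT mouse. The log2 fold change was 0.95 (SE 0.37, limma adjusted p = 0.116), just short of the threshold. It passed with edgeR, at 1.15 (adjusted p = 0.0617), and without KO mouse 20R, the lowest of its group, at 1.22 (limma adjusted p = 0.0150). With other single mice left out it went as low as 0.73, and the limma adjusted p as high as 0.220. The KO lean mice of numbers 9 and 14 had 257 to 532 normalized counts, and those of number 20 had 67.6, 106 and 207. No identifier number occurred in both lean groups, so number and genotype cannot be told apart by values within a number. In obese mice the genotype difference was 0.22 (SE 0.25, limma adjusted p = 1.000). With RvE1, Fabp4 changed by -0.01 (SE 0.22, limma adjusted p = 0.997) in WT and by 0.01 (SE 0.31, limma adjusted p = 0.994) in KO mice, on the log2 scale.

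Within groups, Cfd and Fabp4 showed no steady relation. Pearson r on log2 levels was 0.43 in WT lean, -0.63 in WT obese, -0.55 in WT obese+RvE1, -0.41 in KO lean, -0.10 in obese KO and 0.73 in KO obese+RvE1 mice. Spearman's rho was 0.61, -0.64, -0.64, -0.75, -0.11 and 0.61 in the same order. None of the 6 relations passed adjustment, with exact two-sided permutation p-values from 0.0690 to 0.837 and adjusted p-values from 0.410 to 0.837 for r. For rho the exact p-values ran from 0.0663 to 0.840 and the adjusted ones from 0.200 to 0.840. The positive r in KO obese+RvE1 mice rested on 2 mice, since without mice 15-2L and 23-2L it was -0.38, and with CPM of listed reads over all 7 mice it was 0.76 (exact permutation p = 0.0401, adjusted p = 0.240). Without the 2 mice farthest from the median Fabp4 level, r was 0.26 in WT lean, -0.54 in WT obese, -0.02 in WT obese+RvE1, -0.74 in KO lean and -0.20 in obese KO mice. Over all 42 mice, with each group's mean removed, r was -0.07, as a description.

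**Figure D3:**
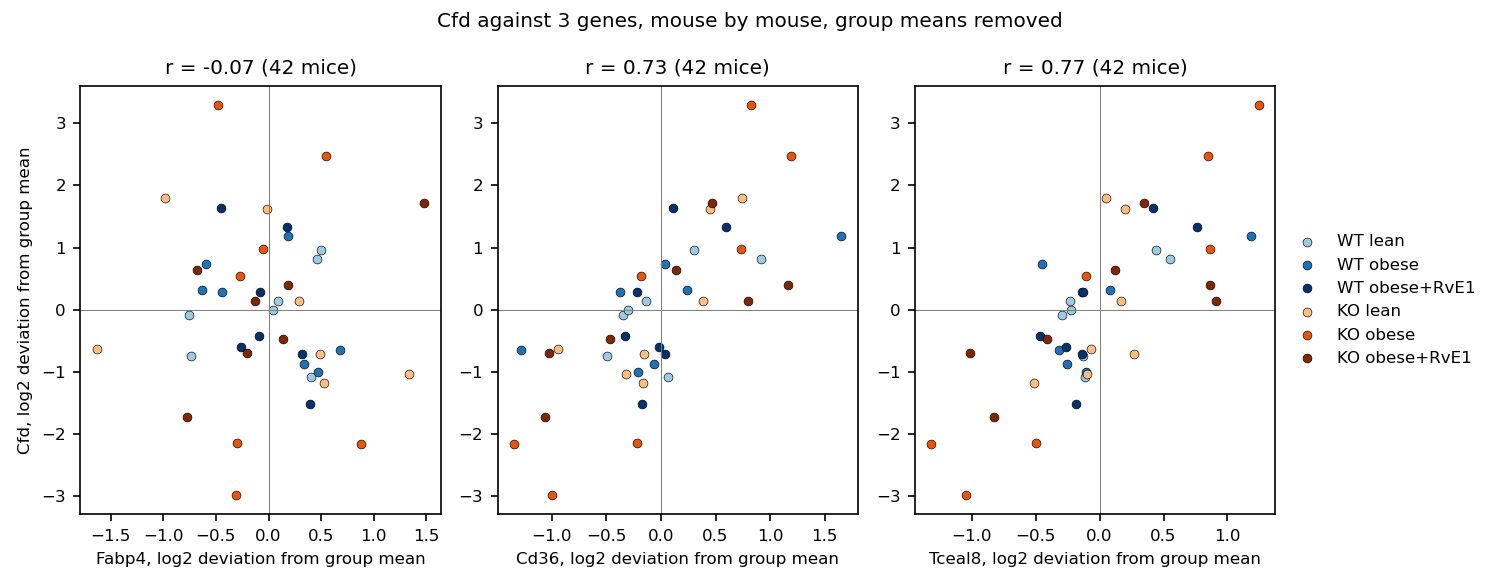
Deviation of each of 42 mice from its group mean, on log2(normalized count + 1), for Cfd (vertical) against Fabp4, Cd36 and Tceal8 (horizontal), coloured by group. The r of Fabp4 was -0.07, whereas mice with more Cd36 (r = 0.73) or Tceal8 (r = 0.77) than their group had more Cfd, with a positive r in each of the 6 groups. Cd36 and Tceal8 were picked by this r in the same mice, so their r is no separate test.

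Many genes had a higher r with Cfd, mouse by mouse, than Fabp4, whose r lay near the median of all genes ranked. Among 12741 genes with a mean of at least 5 in all 6 tables, r with Cfd over 42 mice, group means removed, ran from -0.66 to 0.77 with a median of -0.02. The leading 5 were Tceal8 (0.77), a member of the transcription elongation factor A-like family, Uap1l1 (0.75), a relative of the enzyme that makes UDP-N-acetylglucosamine, Lgals1 (0.75), the gene of galectin 1, Themis (0.73), known from thymocyte selection, and Cd36 (0.73), a fatty acid transporter. Fabp4 stood at rank 7433. All points share the libraries of 42 mice and the scaling of their tables. The 5 were picked by r in these same mice, so their r, also within groups, is no separate test. With CPM of listed reads in place of the size factors, a rescaling of the same reads, 4 of these 5 genes were again the leading 5.

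Cd36 is itself an adipocyte gene that liver cells also make. It had 636 to 4885 normalized counts in WT obese and 1048 to 6074 in KO obese mice, and its r with Cfd was 0.62 to 0.89 in each of the 6 groups. Lgals1 had 78.8 to 512 normalized counts in WT obese and 57.0 to 562 in KO obese mice, with r of 0.92 and 0.94 in these groups but -0.20 in WT lean mice. Themis had 2.39 to 31.4 in WT lean and 43.8 to 1211 in WT obese mice, with r of 0.54 to 0.90 in the 6 groups. Tceal8 had 207 to 645 normalized counts in WT obese and 182 to 1076 in KO obese mice, with r of 0.50 to 0.94 in the 6 groups. Uap1l1 had an r of 0.96 in KO obese mice and -0.33 in WT lean mice.

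**Figure D4:**
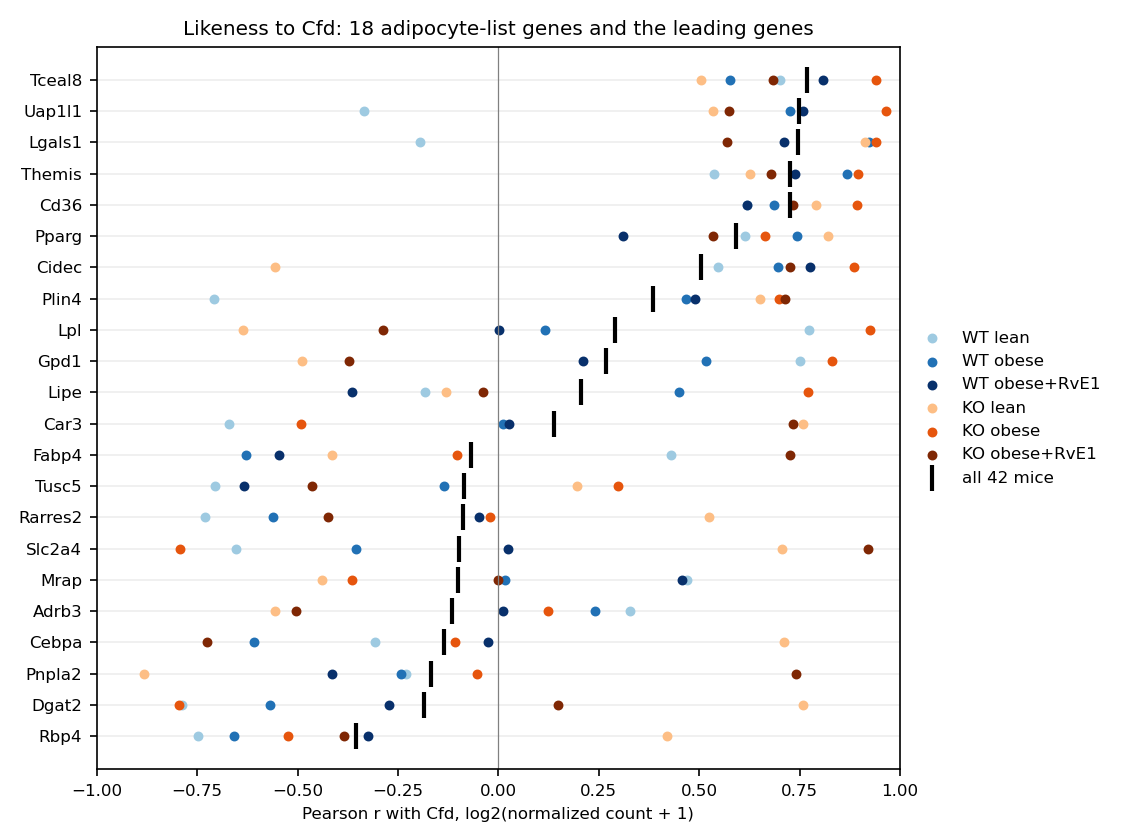
Pearson r with Cfd on log2(normalized count + 1) within each group of 7 mice (points) and over 42 mice with group means removed (bars), for 18 genes of the adipocyte lists and the leading genes. Cd36, Pparg and Cidec stood at 0.73, 0.59 and 0.50, while Fabp4 and the 4 adipocyte-restricted markers ranked (Adrb3, Tusc5, Slc2a4 and Mrap) lay between -0.12 and -0.07 with group values on both sides of 0. With CPM of listed reads Fabp4, Adrb3, Tusc5 and Mrap lay between 0.05 and 0.13 and Slc2a4 at -0.22.

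The adipocyte genes that liver also makes covered a wide range of likeness to Cfd. Of the 14 on the list, all listed in the 6 tables, Pparg, the master regulator of fat cell formation, had an r of 0.59 with Cfd (rank 38 of 12741) and Cidec, a lipid droplet protein, 0.50 (rank 129). Plin4, another droplet protein, had 0.38 and the lipases Lpl and Lipe had 0.29 and 0.21. Dgat2, Rbp4 and Pnpla2 had -0.19, -0.35 and -0.17. With the diet in KO mice, 4 of the 14 rose, Pparg by 2.05 (limma adjusted p = 0.00444), Plin4 by 2.02 (0.00425), Car3 by 2.06 (0.0116) and Cd36 by 1.46 (0.0175) on the log2 scale, and Cebpa fell by 0.81 (0.00640). The median of the 14 was -0.08 against -0.00206 over all genes, of which 10.4% were called. In WT mice Pparg was higher by 1.62 and Cd36 by 1.59 on the log2 scale, the 2 called among the 14, where 3.8% of all genes were. Between the lean genotypes Cd36 (0.71, limma adjusted p = 0.0817) and Cebpa (0.69, limma adjusted p = 0.0417) rose, where 6.65% of all genes were called. Between the obese genotypes and with RvE1 in WT or KO mice 0 of 14 were called by limma, with 0, 1 and 0 at an unadjusted p under 0.05. The shares called over all genes were 0.0141%, 0% and 0%, so 0 of 14 is near them.

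Of 12 markers held to be restricted to adipocytes, several were well above 0 in every obese liver. In WT obese mice Mrap, which carries the ACTH receptor to the cell surface, had 910 to 1339 normalized counts and Adrb3, the beta 3 adrenergic receptor, 147 to 286. Their levels in KO obese mice were 914 to 2036 and 77.0 to 184. The sum of the 12 was 1231 to 1694 in WT obese and 1197 to 2243 in KO obese mice and consisted mostly of Mrap, whereas Adipoq was at 0 in 5 of the 14 mice, Lep in 7 and Plin1 in 9. With the diet in KO mice 0 of the 5 tested were called by limma, with 0 at an unadjusted p under 0.05, where 10.4% of all genes were called. In the WT diet, lean genotype, obese genotype, WT RvE1 and KO RvE1 contrasts limma likewise called 0 of the 5, 4, 7, 5 and 6 tested, with 2, 0, 1, 1 and 1 at an unadjusted p under 0.05, where 3.8%, 6.65%, 0.0141%, 0% and 0% of all genes were called. With so few markers tested, 0 calls are near these shares. The 4 ranked for likeness, Adrb3, Tusc5, Slc2a4 and Mrap, had r of -0.12, -0.09, -0.10 and -0.10 with Cfd. With CPM of listed reads these were 0.12, 0.05, -0.22 and 0.13, so their signs depend on the scaling, except for Slc2a4.

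Cidea, a lipid droplet protein of brown fat that fatty livers also make, belongs to these 12 and was singled out after its values were seen. In the table of obese vehicle mice, the 4 mice with the highest Cidea were the 4 with the highest Cfd. WT mice 27-2R and 6R had 96.1 and 105 normalized counts of Cidea beside 445 and 610 of Cfd, and KO mice 10-2L and 10RL had 75.8 and 117 beside 963 and 1685. The other 10 mice had at most 10.7. In WT obese+RvE1 mice Cidea was highest in 7-2L, at 77.2, and next in 30RL, at 33.5, the mice with the highest and second highest Cfd. In KO obese+RvE1 mice, 23-2L had the highest level of both genes, 145 and 1146, but 15R, second in Cfd, had 16.2 of Cidea. Mouse 6L, the richest in Adipoq, had 2.94 of Cidea in the obese vehicle table.

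The partners of factor D in complement moved in both directions with the diet in KO mice. Of 18 genes of the alternative pathway, its regulators and the terminal complex, all tested in the KO diet contrast, 3 rose and 4 fell, against 10.4% called over all genes, and the median change was -0.10 on the log2 scale. Those with the smallest adjusted p all fell: Vsig4, a receptor of Kupffer cells for C3 fragments, by 0.73 (limma adjusted p = 0.00348), Cfp, which encodes properdin, the stabilizer of the convertase, by 0.91 (0.00354), C8b of the terminal complex by 1.10 (0.0167) and the regulator Cd55 by 0.69 (0.0477). In WT mice 0 of 18 were called with the diet by limma, with 0 at an unadjusted p under 0.05. Over all genes 3.8% were called there, and with 18 tested, 0 calls are near this share. Between the lean genotypes 3 of 17 were called and all rose in KO, C3ar1, the receptor of C3a, by 0.93 (limma adjusted p = 0.0308), Vsig4 by 0.84 (0.0308) and Cfp by 0.80 (0.0357), where 6.65% of all genes were called. Kupffer cell markers, among them Vsig4, moved the same way. Between the lean genotypes 6 of the 6 tested were called higher in KO (median 0.99 on the log2 scale), with sums of 7396 to 15859 normalized counts against 3054 to 6811 in WT. With the diet in KO mice 5 of the 6 were called lower (median -0.91), with sums of 4518 to 5940 in obese and 8151 to 17490 in lean mice. Their part in the complement changes was not tested. Between the obese genotypes and with RvE1 in WT or KO mice limma called 0 of 18, with 1, 3 and 0 at an unadjusted p under 0.05. Of all genes, 0.0141%, 0% and 0% were called in these 3 contrasts. Over 42 mice, Cfb, the substrate of factor D, had an r of 0.05 with Cfd, C3 had -0.06 and C5ar1, the receptor of C5a, had 0.37, but with CPM of listed reads these were 0.40, 0.20 and 0.53, so the values depend on the scaling.

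Of the 5 adipokine receptors, Lepr, the leptin receptor, fell by 3.01 on the log2 scale with the diet in KO mice (limma adjusted p = 0.00322) and Cdh13, which binds adiponectin, rose by 0.61 (limma adjusted p = 0.0480). Adipor1, Adipor2 and Cap1 were not called, and 10.4% of all genes were. In WT mice, Lepr was lower by 3.96 with the diet. Limma called 1 of the 5 receptors there, as lower, where 3.8% of all genes were called. Between the lean genotypes, between the obese genotypes and with RvE1 in WT or KO mice limma called 0 of 5, with 1, 0, 1 and 0 at an unadjusted p under 0.05, where 6.65%, 0.0141%, 0% and 0% of all genes were called.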

How the data were processed

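The authors prepared stranded libraries from total liver RNA, checked reads with FastQC, aligned them to mm10 with Bowtie2 and counted read pairs per gene with featureCounts (versions and strandedness not given in the sources used here). DESeq2 was run by the authors on each pair of groups, and the deposited signal values are its normalized counts, comparable within a table. The deposited fold changes and p-values of the authors were not used. Whole reads were recovered from the worth of 1 read in each library: 100% of values were whole within 0.1 reads.

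Log2(normalized count + 1) was tested with limma 3.58.1 in R 4.3.3 (lmFit, eBayes with trend, two-sided) on genes with a mean of at least 5 over 14 libraries, BH-adjusted over all genes tested. Calls needed an adjusted p below 0.1 and a fold of more than 1.5. The call for the RvE1 by genotype difference had no fold threshold. The code was tested on simulated data. Alternatives were edgeR 4.0.16 and DESeq2 1.42.0 on recovered reads, TMM scaling, pseudocounts of 0.5 and 4, no filter, the identifier number as a random block and leaving out mice. On recovered reads edgeR called 562, 1545, 874, 2, 1 and 0 genes in the WT diet, KO diet, lean genotype, obese genotype, WT RvE1 and KO RvE1 contrasts. Nothing says that mice of 1 group came from separate litters or cages, so p-values measure the spread between these mice. Correlations used scipy 1.17.1 (exact permutation over all pairings of 7 mice), each group taken from 1 table. Genes named beside the 6 members are the list genes with the smallest adjusted p among those called (up to 4 per contrast), the 5 genes most like Cfd, and list genes given by their r, and others are said to be chosen after their values were seen. The members and lists were chosen with earlier results of these data known. The limit given for a count of 0 covers counting error only, whereas SD and SE come from the spread between mice.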

Additional observations from a re-analysis of the deposited data

Results flagged for a closer look

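Of 20 groups of 7 mice examined over the 6 members, 9 held a mouse far from the other 6. Dixon's test of the gap to its neighbour against the whole range was used. Of these 9 groups, 7 belong to the same 2 mice. The test's chance rate of about 1 in 20 groups assumes normally distributed values. That rate is no yardstick for the 9, because normalized counts were used without a log. Most values of Adipoq, Lep, Retn and Plin1 also rest on 3 reads or fewer, and genes flagged in the same mouse are not independent. WT obese mouse 6L stood apart for Lep, at 52.9 normalized counts against 1.32 in the next mouse, Adipoq (32.3 against 1.41), Plin1 (28.4 against 1.41) and Retn (2.94 against 1.23, from 3 reads). KO obese mouse 10R stood apart for Lep (31.3 against 1.69), Adipoq (17.6 against 2.14) and Plin1 (13.0 against 1.69).

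In KO obese+RvE1 mice, mouse 23-2L stood apart for Cfd, at 1146 normalized counts against 544 in the next mouse, and for Fabp4, at 561 against 228.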

How the results depend on the processing

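Cfd kept its call for the diet in KO mice with each pseudocount, with no filter, TMM, edgeR, DESeq2, an adjusted p under 0.05 and no fold threshold, and without any single mouse (from 2.46 up to 3.501). It lost the call when the identifier number was a random block (2.94), without number 9 (2.56) and without number 10 (1.32). For KO obese against WT obese mice, edgeR (0.61), DESeq2 (0.62) and leaving out number 31 (0.51) turned the direction, leaving out number 10 gave -2.33, and single mice left out gave -1.19 to -0.14. For RvE1 in KO mice edgeR (-0.17), DESeq2 (-0.16) and leaving out number 31 (-0.18) turned the direction, leaving out number 10 gave a call (2.65), leaving out number 23 gave 0.18, and single mice gave 0.47 to 1.51. Single mice left out gave 0.41 to 0.90 for Cfd between lean genotypes (0.01 without number 20), 0.81 to 1.34 for RvE1 in WT, -0.62 to 0.42 for the RvE1 by genotype difference (-1.43 with edgeR) and 4.14 to 4.51 for the WT diet. The adipocyte transcripts had 0 calls over the 5 tested contrasts and 1 with edgeR (Fabp4 between lean genotypes), with 0 to 1 without single mice. Lep between obese genotypes changed sign with a pseudocount of 4 (-0.034) and edgeR (-0.60), and without single mice it ran from -0.12 to 0.28. Fabp4 without single mice ran from -0.12 to 0.10 for RvE1 in WT, -0.23 to 0.16 for RvE1 in KO, 0.73 to 1.22 between lean and 0.07 to 0.33 between obese genotypes, -0.51 to -0.02 for the KO diet and 0.37 to 0.61 for the WT diet. With CPM of listed reads, r of Cfd with Fabp4 was 0.20 in KO obese mice and 0.087 over 42 mice, each of the opposite sign, and without the 2 farthest mice it was -0.38 in KO obese+RvE1 mice. The cause of these changes was not tested. Depth limits Adipoq, Lep, Plin1 and Retn, whose reads were 3 or fewer in 12 of 14 mice.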

Other observations

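At the low end of the order of likeness to Cfd over 42 mice stood Avpr1a, a vasopressin receptor, with an r of -0.66, Bmp2, a ligand of the BMP pathway, with -0.64, Apom, an apolipoprotein of HDL, with -0.64, Pnp, a purine salvage enzyme, with -0.63, and Add3, a protein of the membrane skeleton, with -0.62, all described after their values were seen and without a test. With CPM of listed reads these 5 were -0.57, -0.46, -0.37, -0.38 and -0.17. Over all 12741 genes, r lay between -0.41 and 0.43 for the middle 95%, and 6 genes were above 0.7.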
